A study of Caenorhabditis elegans with 2 samples.

Results

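Autosomal distal intergenic peaks are sites of IRX-1-eGFP signal on chromosomes I to V that lie between protein-coding genes and away from their starts. They were chosen by position alone from the authors' optimal list of 2445 peaks. The summit, the base that the authors' caller marked as the peak's highest point, had to lie in no protein-coding gene body. It also had to lie outside every protein-coding promoter window, which runs from 1000 bp upstream to 200 bp downstream of an annotated gene start. Intergenic summits within 200 bp of a tRNA, snoRNA or snRNA gene were left out, which removed 32 peaks. The rule kept 346 of 1984 autosomal optimal peaks (17.4%, 95% Wilson interval 15.8 to 19.2%). Of the other autosomal peaks, 1217 lay in a promoter window and 389 in a gene body outside those windows.

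The study mapped the tagged protein by chromatin immunoprecipitation and sequencing in whole Caenorhabditis elegans hermaphrodites of the first larval stage (L1). There was 1 group with 2 biological replicates and no second condition. Per the labels, both came from strain OP536, which has the genotype unc-119(tm4063) III; wgIs536 and stably expresses IRX-1 with a GFP-FLAG tag at its C-terminus. Animals were bleached, synchronized as starved L1 larvae and collected 6 hours later, chromatin was sonicated, and the tagged protein was precipitated with an antibody against GFP. All animals therefore carried both the transgene and the unc-119 mutation, and no untagged strain was analysed here. Not given in the sources used here are the promoter that drives the transgene and the state of the animals' own irx-1 gene. In whole animals, signal from few cells and weak signal in many cells cannot be told apart.

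Iroquois proteins are homeodomain transcription factors that bind DNA and turn genes on or off, and worm IRX-1 is known for its role in motor neurons that release GABA. Transcription factors act at promoters and at distal elements such as enhancers, which can lie between genes and act on a start some distance away. In worms many messenger RNAs are trans-spliced: the first part of the transcript is cut off and replaced by a short leader. The annotated start of such a gene then lies downstream of the place where transcription begins, so a site called distal from the annotation can be nearer to the true start than its distance shows. Nothing in these data says which gene a distal site acts on, and the gene named beside a peak below is only the one with the nearest annotated start.

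The windows of 101 bases centred on a summit show what recurs at these sites, read from the plus strand of the RefSeq sequence of WBcel235, which ce11 names. The first set shows the commonest 10-base word, GAGACGCAGA, with reverse complement TCTGCGTCTC, at 4 members. Capitals mark this word, its inner 6-mer GACGCA and the 6-mer GAGAGA, each on either strand (GAGAGA then reads TCTCTC) and with overlaps joined.
Member with the nearest start T04C4.3, chrIV:2219577-2219677: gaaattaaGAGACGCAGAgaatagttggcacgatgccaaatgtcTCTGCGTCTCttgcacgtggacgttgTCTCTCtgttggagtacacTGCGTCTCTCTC
Member with the nearest start F54F12.1, chrIII:13061256-13061356: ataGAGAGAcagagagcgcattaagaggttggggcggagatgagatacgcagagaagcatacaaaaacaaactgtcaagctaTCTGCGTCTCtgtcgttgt
Member with the nearest start T23E1.1, chrIV:3160942-3161042: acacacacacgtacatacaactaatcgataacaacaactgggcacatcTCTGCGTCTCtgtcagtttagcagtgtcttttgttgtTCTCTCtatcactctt
Member with the nearest start egl-9, chrV:10466710-10466810: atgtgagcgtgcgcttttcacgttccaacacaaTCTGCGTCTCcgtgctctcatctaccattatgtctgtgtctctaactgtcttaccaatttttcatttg

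The second set shows members with GAGAGA and no GACGCA, and 1 member with GACGCA and no GAGAGA, with the same marking.
Member with the nearest start nhr-88, chrII:2974025-2974125: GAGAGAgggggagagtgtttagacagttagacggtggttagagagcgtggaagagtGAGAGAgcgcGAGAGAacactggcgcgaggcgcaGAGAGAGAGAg
Member with the nearest start hif-1, chrV:20778377-20778477: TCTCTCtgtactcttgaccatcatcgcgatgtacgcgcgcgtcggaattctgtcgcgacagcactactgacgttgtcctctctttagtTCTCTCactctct
Member with the nearest start F53E10.5, chrV:2600693-2600793: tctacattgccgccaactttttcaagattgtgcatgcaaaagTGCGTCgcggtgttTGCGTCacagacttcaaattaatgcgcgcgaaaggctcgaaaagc

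The third set shows the members ranked 1 and 7 by score among the 346, which hold none of those words. Capitals mark a run of 14 bases that both share. The member ranked 1 does hold CTGCGT, the reverse complement of ACGCAG, a word shifted by 1 base from GACGCA.
Member with the nearest start F58D12.3, chrV:14055163-14055263: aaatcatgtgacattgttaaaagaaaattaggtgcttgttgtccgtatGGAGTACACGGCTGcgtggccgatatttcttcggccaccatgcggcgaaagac
Member with the nearest start H12I13.1, chrII:6061651-6061751: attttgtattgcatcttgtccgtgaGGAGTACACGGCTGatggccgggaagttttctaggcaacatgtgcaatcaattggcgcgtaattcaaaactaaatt

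The strongest members by pooled score also scored high in both replicates. The pooled score was made from the alignments of both, so this describes the members and is no separate evidence of replication. Peak scores here are the authors' own, with no stated formula, and the scale of the pooled list differs from that of each replicate list. The member with the highest score lay 2627 bp upstream of F58D12.3 (chromosome V, 14055074 to 14055369). Its pooled score was 889.8, its scores in the replicate lists were 482.9 (replicate 1) and 417.8 (replicate 2), and it ranked 18 and 12 in those replicate lists. The second lay 2771 bp upstream of T04C4.3 (chromosome IV, 2219463 to 2219765), between it and the divergent gene fnip-2, and scored 647.3 after pooling, 357.9 in replicate 1 and 280.2 in replicate 2. The third (chromosome I, 16891 to 17139) lay in a gap of 646 bp between the ends of nlp-40, which encodes a neuropeptide, and rcor-1, which encodes a CoREST-type corepressor. It scored 640.2 after pooling, 340.2 in replicate 1 and 299.4 in replicate 2. These 3 sites thus lie in tandem, divergent and convergent gaps.

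The next members by score lay near genes of varied kinds. One 4776 bp upstream of cmd-1, the calmodulin gene, scored 595.7 and lay inside the long intergenic noncoding RNA gene linc-128 (chromosome V, 1151366 to 1151632). One 6536 bp upstream of Y105C5A.1 scored 580.1, and one 1994 bp upstream of sup-26, which encodes an RNA-binding protein, scored 574.7 (chromosome III, 4281995 to 4282501). The member at H12I13.1 scored 512.8 and lay 181 bp upstream of the start of a pseudogene. Members near F40E3.3 (474.9), F54F12.1 (449.5) and F07H5.13 (445.4) followed.

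One of the 12 highest-scoring members lay 1980 bp upstream of hif-1 (chromosome V, 20778333 to 20778539), which encodes the hypoxia-inducible transcription factor. It scored 434.6 after pooling, 268.6 in replicate 1 and 167.9 in replicate 2. Outside the 12, a member ranked 33 and chosen for mention after its values were seen lay 1757 bp upstream of egl-9. This is the prolyl hydroxylase gene whose product marks HIF-1 for breakdown. The egl-9 member scored 273.5 and holds the 10-base word shown above. The last of the 12 lay 1530 bp upstream of mfb-1, which encodes an F-box protein, and scored 422.2. All 12 ranked between 12 and 214 in the replicate lists, so each was well inside the top 2445 regions of both.

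As a class the distal intergenic peaks repeated between replicates nearly as often as the other classes. Of the 346, 249 (72.0%, Wilson interval 67.0 to 76.4%) were overlapped by the top 2445 regions of both replicates, against 78.4% of promoter peaks (75.99 to 80.6%) and 72.8% of gene body peaks (68.1 to 76.9%). In the top list of replicate 1 only there were 47, in that of replicate 2 only 45, and in neither 5. The optimal list was itself filtered on how well peaks repeat between replicates, so these shares describe the members and are no separate evidence of replication. Over the 342 members with a summit inside regions of both lists, Spearman's rho of the 2 replicate scores was 0.545, a description across peaks that share the same 2 libraries.

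**Figure D1:**
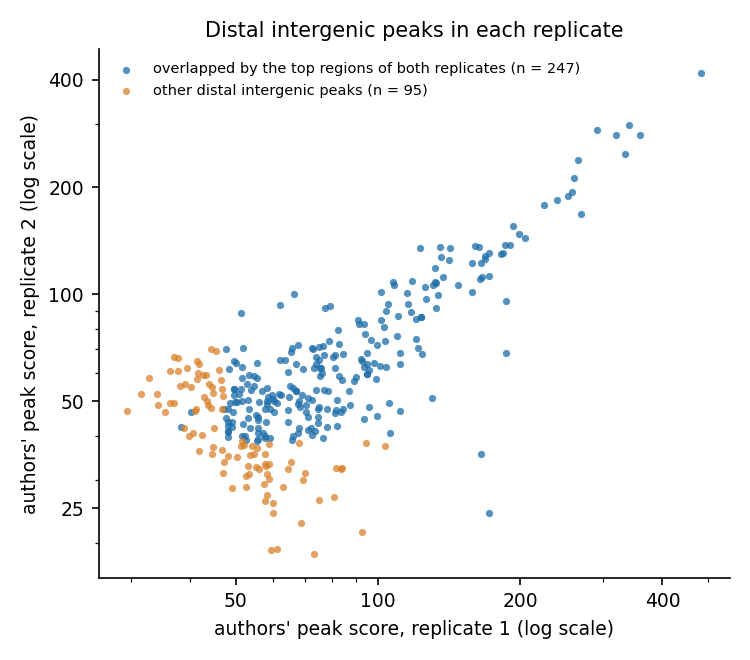
Authors' peak score of each distal intergenic peak in replicate 1 (horizontal) and replicate 2 (vertical), both on log scales with no unit, for the 342 peaks whose summit lies in a region of both lists. Peaks overlapped by the top regions of both replicates are drawn apart from the others, and the strong peaks lie close to one line while weak ones scatter.

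Applied to each replicate's own top 2445 regions, the rule kept 353 distal intergenic peaks in replicate 1 (17.8% of its autosomal regions) and 368 in replicate 2 (18.5%), a mean of 360.5 ± 10.6 (SD, n = 2). Of these, 82.4% in replicate 1 and 79.9% in replicate 2 overlapped a member of the 346. The replicate values below come from these lists and show the spread between libraries. No read totals were used, so library depth is unknown.

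The distal intergenic peaks were weaker than promoter peaks. Their median score was 112.3, with quartiles at 95.6 and 159.3, against 147.5 for promoter peaks (103.6 to 245.3) and 121.2 for gene body peaks (95.2 to 179.8). The difference from the promoter median was -35.2 in the pooled list, and it had the same sign in the replicates' own lists, at -16.3 in replicate 1 and -14.7 in replicate 2. Among the 1222 optimal peaks with the highest scores were 136 members (39.3%), against 56.7% of promoter peaks and 44.7% of gene body peaks. Scores above 200 belonged to 57 members and scores below 100 to 115. Distal intergenic peaks on X, chosen by the same rule, numbered 127 and had a median score of 122.2. These scores were not tested, since peaks are not replicates.

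**Figure D2:**
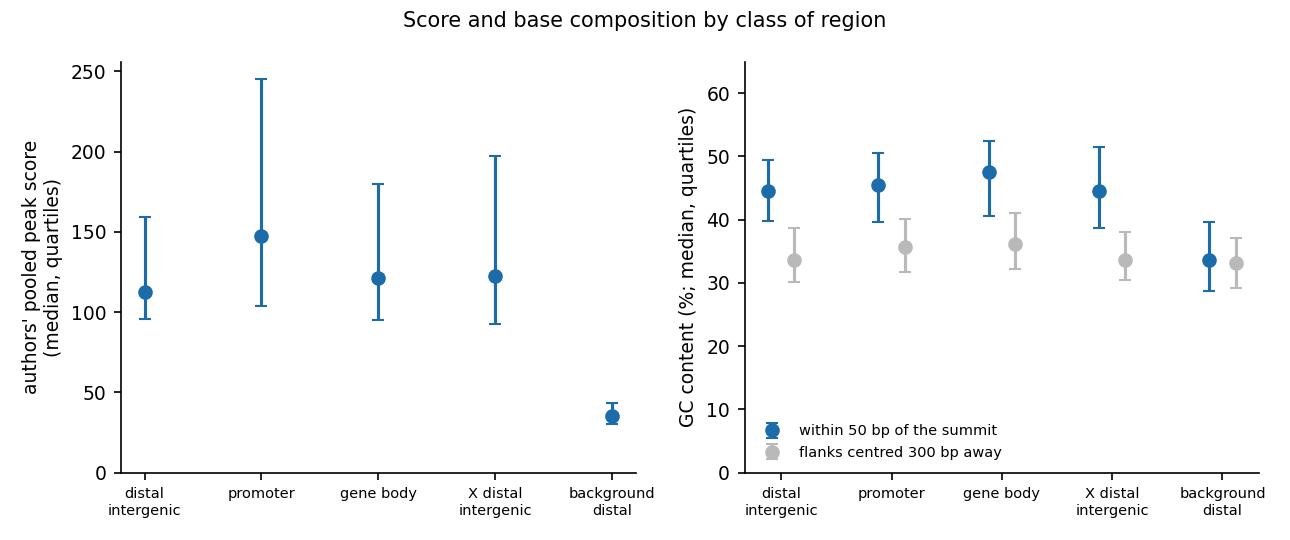
Left, the authors' pooled peak score (no unit) by class; right, GC content in percent within 50 bp of the summit and in flanks centred 300 bp away; points are medians and bars span the quartiles. Distal intergenic peaks have a median score of 112.3, below the 147.5 of promoter peaks, and their summits have a higher GC content than their flanks, by 10.15 percentage points on average against 0.896 for background regions.

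Distal sequence held fewer peaks than its share of the genome. The rule admits 19.3 Mb, which is 23.4% of autosomal sequence, and 17.4% of autosomal optimal peaks lay there. Background regions, the deposited pooled regions that overlap no optimal peak, had 5295 of 20312 autosomal summits there (26.1%, interval 25.5 to 26.7%). Members lay at 17.9 per Mb of admitted sequence and background regions at 274.4 per Mb. No member lay within 20 kb of the start of irx-1, the tagged gene, where there were 10 optimal peaks of other classes, nor within 20 kb of unc-119.

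Most members lay a few kilobases from a start, and beyond 1 kb their density fell with distance. The median distance to the nearest protein-coding start was 2306 bp (quartiles 1531 and 3735), against 2748 bp for background regions. Per Mb of admitted sequence, members numbered 6.82 up to 1 kb (3 members), 22.2 at 1 to 2 kb, 19.2 at 2 to 4 kb, 13.4 at 4 to 8 kb and 11.5 beyond 8 kb. Background regions were flatter, at 204.7, 284.1, 276.9, 271.9 and 251.1 per Mb over the same distances. The 3 members within 1 kb lay downstream of the start of a short gene, past its end, 2 of them 703 and 902 bp from that of K08F11.1. Scores did not follow distance: the median was 111.2 at 1 to 2 kb, 114.4 at 2 to 4 kb, 115.1 at 4 to 8 kb and 108.8 for the 17 members beyond 8 kb.

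Members lay unevenly around their neighbouring genes. Of the members, 281 (81.2%) lay upstream of their nearest start, against 73.0% of background regions. The rule itself favours the upstream side, since a summit downstream of its nearest start must lie past the end of that gene. Gaps between convergent genes, where both neighbours end, held 22 members (6.36%), although they make up 17.6% of the admitted sequence and held 11.6% of background regions. Gaps between divergent genes, where both neighbours start, held 126 (36.4%), against 28.8% of the sequence and 33.2% of background regions. The remaining 198 (57.2%) lay between genes on the same strand, which make up 53.5% of the sequence and held 55.2% of background regions. In the replicates' own lists the convergent share was 5.38% and 7.34%, a mean of 6.36% ± 1.38, and the divergent share 36.1% ± 2.24 (SD, n = 2 each). Both replicates thus lay below the sequence share for convergent gaps and above it for divergent gaps. Median scores in convergent, tandem and divergent gaps were 114.7, 113.7 and 111.6.

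Members lay more densely in the middle of the chromosomes. With each chromosome cut into 3 equal parts, the middle part held 25.6 members per Mb of admitted sequence and the outer parts 14.6, whereas background regions numbered 288.8 and 268.1 per Mb. The outer parts held 56.6% of members, 69.7% of the sequence and 68.1% of background regions, and in the replicates 56.9% ± 1.07 (SD, n = 2). The other autosomal classes had similar outer shares, at 57.35% of promoter peaks and 54.2% of gene body peaks. Of X distal peaks, 74.8% lay in the outer parts of X, for which no sequence or background share is given here. Median scores of members ran against their density, at 119.2 for outer members and 111.0 for middle ones. By chromosome the density was 25.3 per Mb on I, 19.6 on II, 21.9 on III, 15.2 on IV and 13.2 on V, from 71, 70, 61, 76 and 68 members.

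**Figure D3:**
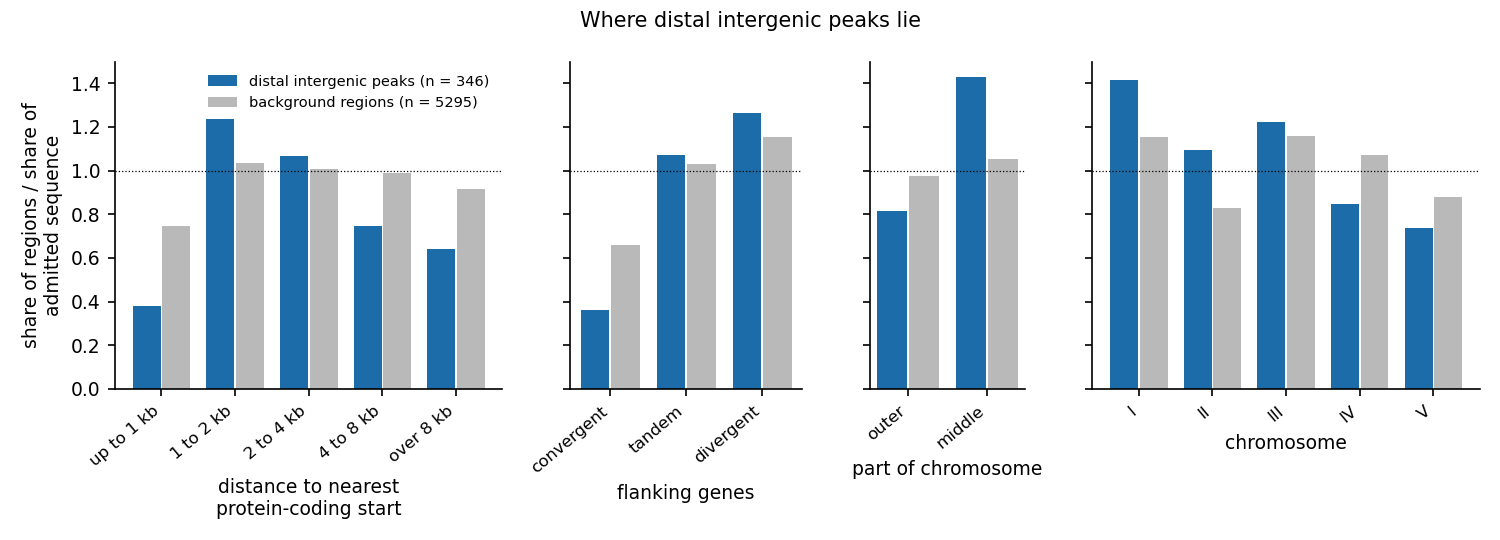
Share of regions divided by the share of admitted sequence (a ratio with no unit; 1 means in proportion to sequence) for distal intergenic peaks and background regions, by distance to the nearest protein-coding start, orientation of the flanking genes, part of the chromosome and chromosome. Distal intergenic peaks are thin in convergent gaps and far from starts, and dense in the middle part.

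Few members had a summit base in a repeat. The summit base was soft-masked, which marks repeats in the RefSeq sequence, in 58 members (16.8%), while 41.3% of the admitted sequence and 39.5% of background summits were soft-masked. The share was also low in the other classes of peaks, at 21.4% of promoter peaks, 17.7% of gene body peaks and 11.02% of X distal peaks. In each replicate's own list 20.1% of distal intergenic peaks had a soft-masked summit. These shares cover the summit base alone, and the window around an unmasked summit can be partly soft-masked. At the member ranked 1 by score, 24.8% of the window was. Windows in which at least 50% of the 36-base words recur in the genome numbered 5 among members (1.45%) and made up 1.72% of background regions. The highest-scoring of the 5 lay near lgc-26 (score 309.5), with every word repeated, and 2 others lay in 1 gap beside K08F11.1. Not given in the sources used here is how reads that map to several places were treated.

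Some gaps held several members. The 346 lay in 282 gaps between protein-coding genes, of which 236 held 1 member and 12 held at least 3. The gap of 19438 bp upstream of cog-1, which encodes an Nkx6-type homeodomain factor of neurons, held 5 members. Of these, 3 had cog-1 as their nearest start, at 10869, 9796 and 4375 bp upstream (chromosome II). The one at 9796 bp scored 285.1 after pooling, 164.4 in replicate 1 and 110.7 in replicate 2. The one at 10869 bp scored 111.6, 51.7 and 70.4 in those lists, and that at 4375 bp scored 97.98, 58.8 and 33.2. The gap of 18574 bp between snt-1, the synaptotagmin gene, and egl-27, which encodes a chromatin factor, also held 5, with scores from 84.9 to 152.8. These were joined by gaps with 4 members beside K08F11.1 (150.9 to 281.3) and between asp-13 and ZC190.4 (87.2 to 170.7). The 4 beside K08F11.1 were pairs of overlapping peaks. Of the members in these 4 gaps, at least 3 in each were in the top lists of both replicates.

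Chaining summits at most 2 kb apart gave 271 single members, 33 pairs and 3 groups of 3. One group lay between lpin-1 and letm-1 on chromosome V, spanned 1985 bp and scored from 92.8 to 321.4, and another lay in the gap of asp-13 and ZC190.4. The third lay upstream of cki-1, which encodes an inhibitor of cyclin-dependent kinases, on chromosome II between 7807017 and 7809301. Its members scored 110.0, 89.3 and 88.5, and none of them was in the top list of both replicates. Among the 346, 31 overlapped another optimal peak, so some neighbours are parts of 1 site.

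The members farthest from any protein-coding start were of middling strength. The farthest lay 28642 bp from the start of sql-1, past its end, with a score of 118.8. The next lay 13308 bp upstream of irld-18, in a gap of 35563 bp between it and dmd-6, with 165.7, and then came one 11534 bp upstream of egl-27 with 108.8, the cog-1 member at 10869 bp and one 10455 bp from snt-1 with 104.9. In all, 6 members lay more than 10 kb from a start and 49 more than 5 kb.

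The lowest score in the optimal list was 81.44, and some members and other distal regions lay close on either side of it. The lowest-scoring members were at wdfy-3 (81.5), cpf-2 (81.8) and dep-1 (82.1), and the distal regions just below the optimal list were at eps-8 (81.3), jmjd-2 (81.3) and mig-6 (81.2). The members nearest to the window edge lay 1007 bp upstream of dhs-8 (146.3) and of gly-20 (95.2) and 1024 bp upstream of adah-1 (101.0). On the other side, promoter peaks lay 996 bp upstream of ppm-2 (309.3), 983 bp upstream of F10C5.3 (87.8) and 971 bp upstream of ZK1321.4 (153.6).

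Noncoding genes of other kinds lay near some members. Within 200 bp of a gene annotated as ncRNA lay 58 summits (16.8%), against 12.2% of promoter peaks, 22.4% of gene body peaks, 20.5% of X distal peaks and 5.97% of background regions. In the replicates' own lists the share was 16.2% and 17.9%, a mean of 17.04% ± 1.26 (SD, n = 2). The strongest of these were members near letm-1 (321.4), near egl-10, the gene of a regulator of G protein signalling (317.3), and near K08F11.1 (279.8). The median score of the 58 was 112.4 and that of the other 288 was 112.3.

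Long intergenic noncoding RNA genes were near 11 members (3.18%, against 1.15% of background regions), of which 8 lay inside the gene. The strongest were at linc-128 (595.7), linc-91 (274.7) and linc-151 (192.0). MicroRNA genes were near 4 members (1.16%, against 0.2455% of background regions). The strongest was a peak with its summit 3 bp upstream of the annotated mir-52 gene (chromosome IV, 14033951 to 14034081). This peak reached into mir-52, and its summit lay inside the gene Y37A1B.335, annotated as ncRNA. It scored 256.3 after pooling, 141.2 in replicate 1 and 125.1 in replicate 2, and the nearest protein-coding start was 9775 bp away. The others were at mir-8209 (110.3), mir-79 (103.8) and mir-53 (97.1), and mir-52 and mir-53 belong to the same microRNA family, mir-51. Genes of piRNAs, the small RNAs of the germ line, were near 5 members (1.45%, against 10.2% of background regions), the strongest near C34B4.2 (310.5), jnk-1 (111.2) and C47A4.1 (111.0). Pseudogenes were near 10 (2.89%, against 6.04%), the strongest being the members at H12I13.1 (512.8), F07H5.13 (445.4) and K08F11.1 (281.3). None was near an annotated antisense RNA or rRNA gene, where 0.132% and 0% of background regions were, and 3 counts of 346, the limit that a count of 0 allows, are a share of 0.867%.

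Genes were then grouped by function through the nearest start, which says where a peak lies and not which gene it acts on. Of all 17242 autosomal protein-coding genes, 304 (1.76%) were the nearest to a member, and this share is the one to set beside each list. No list was tested, since a gene with long intergenic sequence can be nearest to more peaks and the lists were chosen with earlier results known. Shares of members and of background regions are given together for each list.

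Among transcription factors, nuclear hormone receptors, a family of ligand-controlled factors that is large in worms, were nearest to 15 members (4.34%), against 1.81% of background regions. The members lay at 14 of 247 genes (5.67%), with a median score of 123.2. The strongest was 2564 bp upstream of nhr-88, with 406.7 after pooling, 224.5 in replicate 1 and 178.2 in replicate 2, and the next 4620 bp upstream of nhr-20, with 328.0, 190.6 and 137.9. The others belonged to nhr-258, nhr-105, nhr-21 (with 2 overlapping members), nhr-61, nhr-34, nhr-11, nhr-84, nhr-162, nhr-157, nhr-31, nhr-10 and nhr-286, with scores from 84.5 to 198.1. In the replicates' own lists the family was nearest to 14 and 12 peaks, 3.97% and 3.26%. Both replicates were above the background share.

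The basic helix-loop-helix and PAS factors had 3 of 31 genes (9.68%) nearest to a member, with 0.867% of members and 0.453% of background regions. They were hif-1, mml-1 (163.3), a Mondo-type factor, and sbp-1 (117.9), a factor of lipid synthesis. Homeobox factors had 1 of 71 (1.41%), which was cog-1 with its 3 members, and 0.867% of members against 1.40% of background regions. T-box and SOX factors had 0 of 19, which allows up to 15.8%, GATA factors 0 of 7, up to 42.9%, and forkhead factors 0 of 11, up to 27.3%. Of background regions, 0.189%, 0.189% and 0.302% were nearest to genes of these 3 lists.

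Neuronal genes were present as well. Of 22 pan-neuronal and synaptic vesicle genes, 6 (27.3%) were nearest to a member, and the list had 1.73% of members against 0.416% of background regions. They were egl-3 (141.9), which encodes a neuropeptide-processing protease, unc-64 (134.6), the syntaxin gene, unc-104 (111.2), a kinesin of vesicle transport, unc-57 (107.9), the endophilin gene, unc-31 (106.6), a factor of dense-core vesicle release, and snt-1 (104.9). The first lay 1105 bp upstream, with replicate scores of 84.0 and 57.3, and the second 1276 bp upstream, with 78.2 and 53.5. In the replicates' own lists the genes of this list were nearest to 5 and 6 peaks. Axon guidance genes had 3 of 24 (12.5%), at plx-1 (162.5), the plexin gene, unc-51 (112.5), a kinase of axon growth, and unc-44 (110.2), the ankyrin gene, with 0.867% of members against 0.586% of background regions. Of 16 genes of GABA motor neurons, where irx-1 is known to act, 1 (6.25%) was nearest to a member, the kinase gene dlk-1, whose score of 82.1 stood near the end of the list, so that these genes had 0.289% of members against 0.113% of background regions. Of 108 neuropeptide and insulin-like genes 1 (0.926%) was, nlp-40, which gives 0.289% of members against 1.095% of background regions. Channels of the DEG/ENaC and potassium families had 0 of 69, which allows up to 4.35%, and were nearest to 0.718% of background regions.

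Chemoreceptor genes, a very large family of sensory receptors, had 1 of 1276 (0.0784%), srh-16 (98.2), so the list had 0.289% of members against 4.12% of background regions. Heterochronic genes had 1 of 7, lin-41, which encodes a regulator of larval timing, with 215.0 after pooling, 107.9 in replicate 1 and 106.3 in replicate 2, and the list had 0.289% of members against 0.0567% of background regions. Body wall muscle genes had 2 of 33 (6.06%), act-1, an actin gene, with 130.01 and 109.1, and unc-60 (103.5), the cofilin gene, with 0.867% of members against 0.321% of background regions. Cytosolic ribosomal protein genes had 1 of 79 (1.27%), rps-25 (119.9), and detoxification genes 1 of 174 (0.575%), cyp-14A5 (120.6). Each of these lists had 0.289% of members, against 0.453% of background regions for ribosomal and 0.434% for detoxification genes. Several lists had none: 0 of 35 Wnt, Notch and TGF-beta genes (up to 8.57%), 0 of 148 collagens (up to 2.03%), 0 of 76 histones (up to 3.95%), 0 of 57 heat shock and stress genes (up to 5.26%) and 0 of 87 germline genes (up to 3.45%). Background regions nearest to genes of these lists made up 0.567%, 0.340%, 0.113%, 0.434% and 0.189%, in the same order.

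The sequence at the summits was richer in G and C than its surroundings. GC content averaged 44.4% within 50 bp of the summit and 34.3% in 2 equally wide flanking windows, 1 to either side, whose centres lay 300 bp from the summit, a mean difference of 10.15 percentage points. It was higher at the summit in 295 of the 346 members and in 2749 of the 5295 background regions. In the replicates' own lists the difference was 9.95 and 9.31 points, a mean of 9.63 ± 0.455 (SD, n = 2). Promoter peaks differed from their flanks by 9.17 points and background regions by 0.896. Over gene body peaks it was 9.60 and over X distal peaks 10.2.

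Every 6-base word was then compared between summits and flanks, counting a word and its reverse complement as 1 and presence once per window. The test was an exact McNemar test, two-sided, taking the larger p of the left and right flank, with Benjamini-Hochberg adjustment over all 6-mers. At an adjusted p under 0.05, 54 6-mers (2.6% of those tested) were higher at summits and 71 (3.41%) were lower. The higher ones held on average 3.37 G or C bases and the lower ones 0.803, where a 6-mer drawn from all of them holds 3, so word content moved with GC content, and its part in the calls was not tested. Peaks are not independent replicates, and the p-values describe this pooled list.

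GAGAGA had the smallest adjusted p. It was present at 147 summits (42.5%), against 9.54% of left flanks and 8.38% of right flanks (odds ratio 7.19, exact McNemar adjusted p = 6.14e-19). At promoter peaks it was present in 18.5%, at gene body peaks in 37.3%, at X distal peaks in 19.7% and at background summits in 9.10%. It was higher in each replicate's own list, in 40.2% and 39.4% of summits (exact McNemar adjusted p = 1.35e-15 and 4.47e-19). CGAGAG, which overlaps the same pattern, was at 18.5% of summits (odds ratio 7.17, exact McNemar adjusted p = 3.8e-08).

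A second pattern was that of GACGCA and of 2 words shifted from it by 1 base, all of which lie within the 10-base word shown above. GACGCA was at 67 summits (19.4%), against 1.45% and 2.60% of flanks (odds ratio 12.4, exact McNemar adjusted p = 1.45e-10). Promoter peaks had it in 17.3%, gene body peaks in 12.6%, X distal peaks in 11.02% and background summits in 2.89%. The shifted word ACGCAG was at 21.97% of summits (exact McNemar adjusted p = 1.32e-12) and the other, AGACGC, at 19.9% (exact McNemar adjusted p = 1.91e-10). All 3 were also higher in each replicate's own list.

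The other words named for a high odds ratio were less steady. CCGGCG had the highest, 17.7, from 13 summits (exact McNemar adjusted p = 0.0334), and did not pass in the list of replicate 1 (exact McNemar adjusted p = 0.0527) or replicate 2 (0.322). GAGCGC was at 6.36% of summits (exact McNemar adjusted p = 0.0113) and passed in replicate 1 (0.0306) but not in replicate 2 (0.217). CACGTC was at 5.78% (exact McNemar adjusted p = 0.0113) and passed in replicate 2 (0.0052) but not in replicate 1 (0.322). Those lowest at summits were rich in A and T. ATTAAA was at 4.05% of summits against 17.6% and 21.4% of flanks (odds ratio 0.154, exact McNemar adjusted p = 6.52e-07), and CTTTAA at 1.45% against 12.4% and 9.83% (0.124, exact McNemar adjusted p = 0.000112). CTGTAA and TAACGA were at 0.578% and 0.289% of summits (exact McNemar adjusted p = 0.0155 and 0.0195) and passed in neither replicate's own list.

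The core known for mouse Iroquois proteins, ACATGT, did not pass. It was at 18 summits (5.20%), against 3.18% and 1.16% of flanks, 1.73% of promoter peaks and 2.93% of background summits (odds ratio 2.45, exact McNemar adjusted p = 0.887). CGCGCG was at 2.89% of summits, against 7.72% of promoter peaks, and did not pass here (exact McNemar adjusted p = 0.306). CACGTG, the E-box of basic helix-loop-helix factors, was at 8.38% of summits, 3.86% of promoter peaks and 2.30% of background summits (exact McNemar adjusted p = 0.0903). The GATA-type word TGATAA was at 6.07% (exact McNemar adjusted p = 0.868) and CTGGAA at 4.91% (exact McNemar adjusted p = 0.723).

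**Figure D4:**
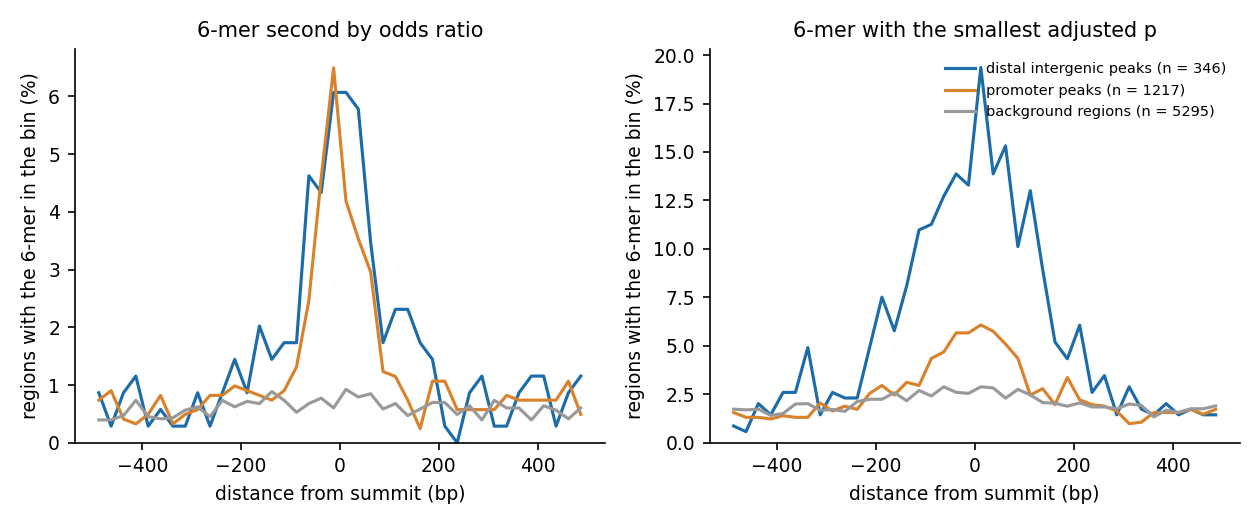
Percent of regions with a 6-mer in each bin of 25 bp by distance from the summit in bp, for distal intergenic peaks, promoter peaks and background regions; left the 6-mer that is second by odds ratio (present at 19.4% of distal summits), right the one with the smallest adjusted p (at 42.5%). The first is highest near the summit in both peak classes, while the second is higher and broader at distal intergenic peaks than at promoter peaks.

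The commonest 10-base word held the GACGCA pattern. GAGACGCAGA was at 37 summits (10.7%) and in 3 of the flanks (0.434%), against 6.74% of promoter peaks, 6.94% of gene body peaks, 3.94% of X distal peaks and 1.15% of background summits. AGAGACGCAG, shifted by a base, was also at 37 summits, and the simple repeat GAGAGAGAGA at 26 (7.51%), against 1.23% of promoter peaks and 7.20% of gene body peaks. These words were picked by frequency among these members and were not tested.

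Members that held a word had the higher scores. The 37 with GAGACGCAGA had a median score of 140.3, against 111.2 for the other 309, and in the replicate lists 82.5 against 65.6 in replicate 1 and 62.7 against 52.1 in replicate 2. For GAGAGA the medians were 128.5 with it and 108.9 without, and for GACGCA 129.4 and 111.0. Either 6-mer was at 170 members (49.1%) and both at 44 (12.7%), and the other 176 held neither.

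Most copies of the 10-base word in the genome were not in an optimal peak. The autosomes hold 3132 copies, of which 286 (9.13%, interval 8.17 to 10.2%) lay in an optimal peak. In the admitted distal sequence 84 of 887 did (9.47%, 7.71 to 11.6%), against 144 of 928 in promoter windows (15.5%, 13.3 to 17.99%) and 58 of 1315 in gene bodies outside them (4.41%, 3.43 to 5.66%). The 346 members had a mean width of 395.9 bp, and the admitted distal sequence was 19.3 Mb. Members thus covered a far smaller share of that sequence than 9.47%. The exact share of sequence inside optimal peaks of any class was not computed. Of the distal copies, 81.0% lay in soft-masked sequence. The 14-base run shared by the members at F58D12.3 and H12I13.1 had 4 autosomal copies, of which 2 lay in optimal peaks, both of them those members.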

How the data were processed

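The data are peak lists from chromatin immunoprecipitation of IRX-1-eGFP in 2 biological replicates of 1 group. Per the file headers and notes, the authors deposited permissive lists for each replicate and for the pooled alignments, each made with a control, and an optimal list filtered by the irreproducible discovery rate. The peak caller, aligner and cutoff were not given in the sources used here, and the depth is unknown. The deposited peak score was used to describe, rank and filter peaks. The deposited −log10 q-value was read but not used for ranking. Replicate lists of 30000 and 24949 regions were cut to their top 2445 by score. The ce10 lists were not used.

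Gene positions came from Ensembl release 115 and bases from RefSeq's WBcel235 sequence, the assembly that ce11 names, with 1-based coordinates. The 95% Wilson intervals of shares cover counting error only. The 6-mer test, with 0.5 added to both counts of each odds ratio, was tested on simulated data. Python 3.11.15, numpy 2.4.6, pandas 2.3.3, scipy 1.17.1 and matplotlib 3.10.9 were used. Members and gene lists were chosen with earlier results of these data known, and the chemoreceptor and ribosomal lists were narrowed when their patterns took unrelated genes. Nearest protein-coding starts are annotated starts, and each gene list is over gene identifiers.

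Peaks named were the 12 with the highest scores, the 5 farthest from a start, the 3 largest chains of summits at most 2000 bp apart, the 2 highest-scoring members of each of 21 gene lists and the 3 highest-scoring near each class of noncoding gene. The 6-mers named were the 8 called with the highest and the 4 with the lowest odds ratio, and 5 others whatever their values, some of them known from earlier results. Other members of a list or gap were named to account for its count. Alternatives covered the size of the list, the promoter window, the peak or its summit, joined peaks, noncoding genes, overlap rules, sequence windows and each replicate alone. No alternative changed the samples' grouping, since there is 1 group.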

Additional observations from a re-analysis of the deposited data

How the results depend on the processing

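Of 98 alternative values of the main results, 50 stayed within a limit and 48 moved further, and the causes were not tested. The limit was 1.5 times for counts and the replicate SD for other values. The share in both top lists has no such SD and was judged by its Wilson interval. For soft-masked summits the SD was only 0.0033 points, so every alternative counted as moved. Those shares, from 14.5 to 20.1%, all lay within the Wilson interval of the main share, 13.2 to 21.1%. Among the 1222 highest-scoring optimal peaks there were 136 distal intergenic peaks, 13.4% of autosomal ones, with a median score of 177.3, a median distance of 2478 bp, a GC difference of 12.2 points, 21 higher and 27 lower 6-mers, 62.5% in the outer parts of chromosomes, 18.4% with a soft-masked summit and 98.5% in both replicate top lists. With the promoter window of 2000 bp upstream to 500 bp downstream there were 221 (11.1%), at a median distance of 3183 bp, with 30 higher and 33 lower 6-mers, 9.50% convergent, 58.4% outer and 14.5% soft-masked. With that of 500 bp upstream to 100 bp downstream the share was 23.3%, the distance 1797 bp, 4.76% were convergent, 54.98% outer and 19.1% soft-masked. With the whole peak outside genes and windows the share was 15.1%, the distance 2496 bp, 59.3% were outer and 17.3% soft-masked. Without summits near any noncoding gene these values were 13.4%, 2229 bp, 59.2% and 16.98%. Joining overlapping peaks gave a GC difference of 10.8 points and 16.6% soft-masked. Windows of 25 bp on either side of the summit gave 10.7 points, with 24 higher and 35 lower 6-mers, those of 100 bp 9.16 points, with 112 and 127, and flanks at 500 bp 10.8 points. Any region of each replicate list overlapped 100% of the peaks. Leaving out either replicate gave shares of 17.8 to 18.5%, median scores of 52.0 to 65.9 on the replicates' own scales, distances of 2241 to 2316 bp, GC differences of 9.31 to 9.95 points and 20.1% soft-masked in both cases. No paired analysis was possible because there is 1 group of samples.

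With depth unknown, a weak site missed for lack of reads cannot be told from an unoccupied one, and no untagged strain was analysed here. Distance and orientation rest on annotated starts, which trans-splicing can shift.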

Other observations

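Other 10-base words also recurred at distal intergenic summits. Of those below, GAGAGACGCA and AGACGCAGAC contain GACGCA, so their members are among those with GACGCA above. ACACACACAC was at 18 members (5.20%) and in 6 of the flanks (0.867%), against 0.904% of promoter peaks, 2.83% of gene body peaks, 5.51% of X distal peaks and 0.453% of background summits. GAGAGACGCA, which joins both 6-mer patterns, was at 19 members (5.49%) and in 2 of the flanks, against 2.30% of promoter peaks and 0.491% of background summits. AGACGCAGAC was at 18 members (5.20%), against 3.12% of promoter peaks and 0.529% of background summits. Copies of GAGACGCAGA in the admitted distal sequence fell in any pooled region, optimal or not, in 297 of 887 cases (33.5%), and those in promoter windows in 348 of 928 (37.5%).

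The side of the nearest start differed between autosomal and X distal intergenic peaks. Of the autosomal ones 81.2% lay upstream of it (Wilson interval 76.8 to 85.0%), against 63.8% of the 127 on X (55.1 to 71.6%). The difference was not tested, and no share of background regions or of sequence on X is given beside it.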
